A study of Rattus norvegicus with 12 samples.

Results

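Sacm1l and 6 genes that act with its product at the Golgi were described in RNA-seq libraries of rat disc cells. The 7 genes were taken by symbol from the deposited tables, and all 7 of the 13546 genes listed in at least 1 table were found, each with 1 Ensembl identifier. They are Sacm1l (ENSRNOG00000005149), Pi4ka (ENSRNOG00000001866), Pi4kb (ENSRNOG00000021024), Osbp (ENSRNOG00000021057), Vapa (ENSRNOG00000014765), Vapb (ENSRNOG00000005331) and Pitpnb (ENSRNOG00000000665). All 7 are listed in all 3 tables and passed the filter on low values in every comparison. The set was taken to be chosen by the measured fold change of Sacm1l, which was among the genes lower with knockdown in untreated cells, and the other 6 were added for their function. The values of these genes in untreated knockdown cells are therefore a description without a test.

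Sacm1l encodes SAC1, a phosphatase of the endoplasmic reticulum and Golgi that removes the phosphate from phosphatidylinositol 4-phosphate (PI4P). PI4P is made by the kinases encoded by Pi4ka, which works mainly at the plasma membrane, and Pi4kb, which works at the Golgi. At contacts between the endoplasmic reticulum and the Golgi, the oxysterol-binding protein encoded by Osbp is tethered by the VAP proteins (Vapa, Vapb) and carries sterol to the Golgi in exchange for PI4P, which SAC1 then hydrolyses. The transfer protein encoded by Pitpnb brings phosphatidylinositol, the substrate of the kinases, to the Golgi.

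The cells were primary nucleus pulposus cells, the cells from the soft centre of the intervertebral disc, grown out from spine tissue of Wistar rats. All groups were transduced with lentivirus and kept in medium with serum. PLKO_CTR cells carried the control shRNA vector and were untreated, and PLKO_TNF cells carried the same vector and were given TNF-a, an inflammatory cytokine, at 50 ng/mL over the last 24 h. The shTon_CTR and shTon_TNF cells carried an shRNA against TonEBP, the osmotic stress transcription factor encoded by Nfat5, and were untreated or treated in the same way. Each group held 3 libraries, numbered as sets 1 to 3, and what a set shares (animal, culture or date) is not stated. The p-values therefore cover only the spread between these samples, which may be technical. Depth ran from 7160042 to 18645538 recovered reads per library, and each of the 7 genes had at least 388 reads in every library, and for log2 ratios near 0 counting error can be as large as the spread between sets.

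Markers of more than 1 cell type were present. Of 12 skeletal muscle markers 11 were listed, and their summed level was 42197 to 97859 normalised reads in set 1, 16418 to 29956 in set 2 and 162 to 254 in set 3, where Myog and Tnnc2 were at 0 in all 4 libraries. Of 12 nucleus pulposus and notochord markers 6 were listed (Krt8, Car3, Cd24, Pax1, Foxf1 and Lgals3). T, Krt18, Krt19, Acan, Col2a1 and Sox9 were not listed under these symbols. The 6 summed to 3417 to 16497, of which Car3 gave 3.03 to 13348 and Lgals3 1444 to 4821. The fibroblast markers, 8 of 8 listed, summed to 29983 to 191589. By group, the muscle sum ran from 184 to 53777 in PLKO_CTR, 162 to 42197 in PLKO_TNF, 241 to 97859 in shTon_CTR and 254 to 81048 in shTon_TNF.

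The window around the start site of Sacm1l, 250 bases before to 50 after, is printed because the gene followed the vector that targets a transcription factor, and the window of Pi4ka is set beside it because that gene had the opposite sign. Both come from RefSeq (rat build GRCr8, plus strand), at chr8:132053215-132053514 for Sacm1l and chr11:97113140-97113439 for Pi4ka, and 6 of the 7 genes had an entry. Capitals mark the matches to the motifs searched.
Sacm1l: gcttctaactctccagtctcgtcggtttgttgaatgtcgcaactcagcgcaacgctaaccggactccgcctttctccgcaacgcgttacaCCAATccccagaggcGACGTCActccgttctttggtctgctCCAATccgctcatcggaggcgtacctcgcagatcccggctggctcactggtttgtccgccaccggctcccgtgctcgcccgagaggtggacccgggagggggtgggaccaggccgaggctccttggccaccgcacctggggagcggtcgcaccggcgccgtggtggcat
Pi4ka: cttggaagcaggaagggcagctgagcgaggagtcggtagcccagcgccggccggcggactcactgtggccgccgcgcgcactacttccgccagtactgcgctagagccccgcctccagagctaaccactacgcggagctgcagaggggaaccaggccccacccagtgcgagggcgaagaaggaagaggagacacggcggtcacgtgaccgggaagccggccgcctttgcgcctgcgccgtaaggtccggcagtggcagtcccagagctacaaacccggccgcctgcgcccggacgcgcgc

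The motifs were searched on both strands, and no match overlapped another. TGGAAA, the core letters of the TonEBP motif, was in none of the 6 windows and is in 22.7% of the 33469 windows of this length in the table. CCAAT was in the Sacm1l window at 2 places and in none of the other 5, against 37.5% of all windows. GACGTCA, most of the cyclic AMP response element, was in the Sacm1l window once and in none of the other 5, against 3.22% of all windows. CCAAT and GACGTCA were picked after the sequence had been seen. The Sacm1l window was 65% G and C, and the others were 54.7% (Pi4kb) to 80.3% (Osbp).

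Nfat5, the gene the shRNA targets, was lower in untreated knockdown cells in 3 of 3 sets, with log2 ratios of -0.59, -1.58 and -2.66. With TNF-a it was lower in sets 2 and 3 (-1.12 and -1.06) and higher in set 1 (1.41), where the library labelled shTon_TNF held 1695 normalised reads. That library goes against its label. For the 7 genes, knockdown with TNF-a and TNF-a in shTon cells are given with and without set 1, while the values of other genes and lists are given with it.

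Sacm1l was the member that differed most between the vectors. In PLKO_CTR it stood at 2516, 2398 and 1729 normalised reads in sets 1 to 3, and in shTon_CTR at 1364, 1013 and 666. In PLKO_TNF it stood at 2848, 2735 and 1987, and in shTon_TNF at 1343, 1000.5 and 587. Every shTon library was below every PLKO library, a pattern shown by 134 of 12310 genes (1.09%). These libraries include the untreated ones through which Sacm1l was taken up, so nothing is read from this share.

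**Figure D1:**
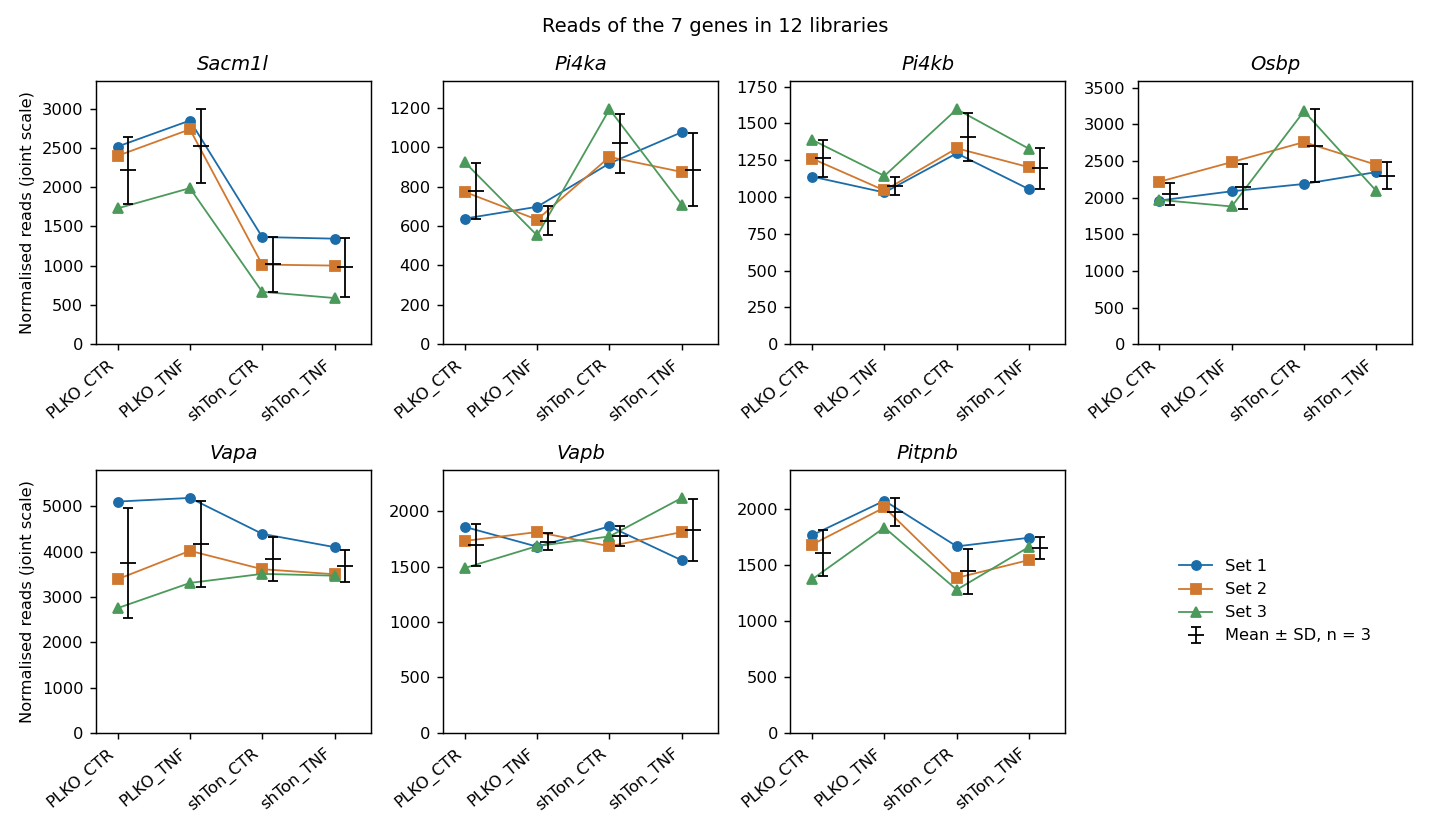
Normalised reads (joint scale over the 12 libraries, y axis) of the 7 genes in the 4 groups (x axis); coloured points joined by lines are sets 1 to 3, and black bars are the mean and SD of 3 libraries. Sacm1l lies at 587 to 1364 in the shTon libraries and at 1729 to 2848 in the PLKO libraries, while each of the other 6 overlaps between the vectors over all 12 libraries.

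Knockdown with TNF-a (shTon_TNF against PLKO_TNF) shares no library with the untreated comparison, but it shares the 3 sets, whose libraries deviate together. Whether its value with TNF-a also entered the choice of Sacm1l is not known, so the p below is not independent evidence. Sacm1l fell there from 2523 ± 468 to 977 ± 378 normalised reads (SD, n = 3), with a log2 fold change of -1.43 (SE 0.18, 95% interval -1.84 to -1.02, adjusted p = 0.0377 in limma). It was left at 37.2% of the PLKO_TNF level, and it was lower in 3 of 3 sets (as were 19.8% of all genes), with log2 ratios of -1.07, -1.45 and -1.76. In this comparison 0.254% of 12213 genes passed in either direction and 0.139% were lower, and 52 genes had a more negative fold change than Sacm1l. For this gene the authors' deposited table gives -1.24 (adjusted p = 2.24e-07). The call was lost without the set as a block (adjusted p = 0.757), without the mean-variance trend (0.172) and with a pseudocount of 0.1 (0.0586). Across all 12 alternatives adjusted p ran from 1.36e-07 to 0.757 and the log2 fold change from -1.60 to -1.26.

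The library labelled shTon_TNF of set 1, in which Nfat5 was high, had a low Sacm1l level (1343, below the lowest PLKO library at 1729). Without set 1, Sacm1l had -1.60 (adjusted p = 0.000393 in limma). In that fit 488 of 12092 genes passed, beside 31 of 12213 with all sets. The smaller p is therefore not read as a firmer result for Sacm1l. In bulk libraries fewer cells of a type and less RNA per cell cannot be told apart. The muscle marker sums of the sets are given above, and their part in this result was not tested.

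**Figure D2:**
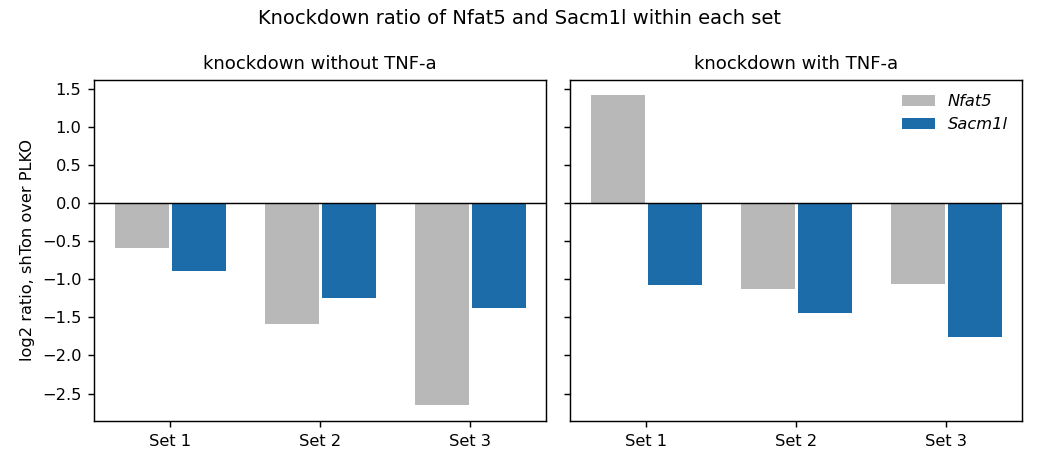
Log2 ratio of shTon over PLKO (y axis) for Nfat5 (grey bars) and Sacm1l (blue bars) within each set (x axis), untreated on the left and with TNF-a on the right; each bar is 1 pair of libraries. Sacm1l is below 0 in 6 of 6 pairs, and Nfat5 is above 0 in set 1 with TNF-a (1.41). The untreated pairs belong to the comparison through which Sacm1l was taken up, so nothing is read from their sign. With TNF-a, 19.8% of all genes were lower in 3 of 3 sets.

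In untreated cells, the comparison through which the gene was taken up, Sacm1l averaged 2214 ± 424 in PLKO_CTR and 1015 ± 349 in shTon_CTR. Its log2 ratios in the 3 sets were -0.89, -1.25 and -1.37, with a mean of -1.17 (SE 0.13), without overlap. In this comparison 0.113% of 12383 genes passed limma in either direction and 0.0969% were lower, 5.13% were lower without overlap and 20.2% were lower in 3 of 3 sets. Nothing is read from these shares. The log2 ratio with TNF-a less that without was -0.26 (SE 0.20, 95% interval -0.71 to 0.18, joint scale). For the other 6 it ran from -0.29 (Osbp, SE 0.20) to 0.09 (Pi4ka, SE 0.28). These differences contain the untreated comparison, so they were not tested for the 7 genes. Across all genes 0 of 12310 (0.0%) passed the interaction in limma (219 at an unadjusted p under 0.05), and edgeR and DESeq2 also passed 0.

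The kinase genes had the opposite sign to Sacm1l with knockdown but did not pass. Pi4ka, the plasma membrane kinase, stood at 697, 632 and 552 normalised reads in PLKO_TNF and at 1076, 874 and 709 in shTon_TNF. The groups did not overlap, as in 6.02% of genes that were higher with knockdown, though the gap between 697 and 709 was small. The log2 fold change was 0.49 (SE 0.16, 95% interval 0.13 to 0.85, unadjusted p = 0.0142, adjusted p = 0.191 in limma), higher in 3 of 3 sets, as were 20.5% of all genes. In untreated cells Pi4ka went from 637, 772 and 923 in PLKO_CTR to 917, 950 and 1192 in shTon_CTR, a mean log2 ratio of 0.39 (SE 0.12) with overlapping groups. Pi4kb, the Golgi kinase, had 0.15 with TNF-a (SE 0.15, 95% interval -0.19 to 0.50, adjusted p = 0.644) and 0.15 without (SE 0.11). It was higher in 3 of 3 sets in each comparison (without TNF-a, 20.6% of all genes were), with overlapping groups in both.

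A ratio of 2 genes' reads within a library does not depend on how libraries were scaled. The log2 ratio of Sacm1l to Pi4ka reads was 1.51 ± 0.55 in PLKO_CTR, 2.00 ± 0.14 in PLKO_TNF, -0.06 ± 0.72 in shTon_CTR and 0.08 ± 0.31 in shTon_TNF (SD, n = 3). With TNF-a the ratio was lower in the shTon library by -1.71, -1.92 and -2.12 in the 3 sets, and without it by -1.41, -1.54 and -1.75. For Sacm1l to Pi4kb the mean differences were -1.58 ± 0.43 with TNF-a and -1.32 ± 0.25 without. Both ratios were lower in the shTon library in 6 of 6 pairs, of which 3 belong to the comparison that brought Sacm1l in. Gene lengths were not taken into account, so only changes of the ratio between libraries have a meaning.

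**Figure D3:**
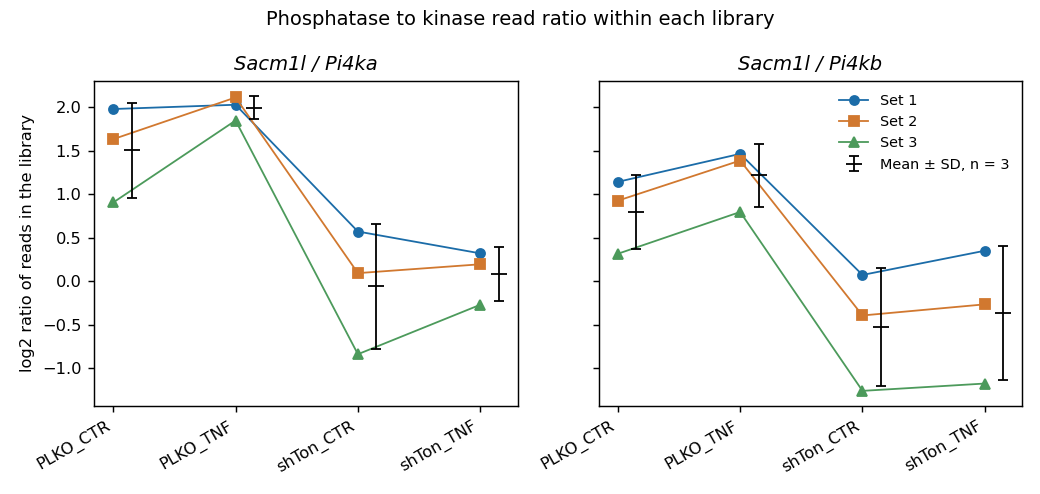
Log2 ratio of Sacm1l reads to Pi4ka reads (left) and to Pi4kb reads (right) within each library (y axis), by group (x axis); coloured points joined by lines are sets 1 to 3 and black bars are the mean and SD of 3 libraries. For Pi4ka the highest shTon library lies at 0.57 and the lowest PLKO library at 0.91.

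The lipid transfer and tether genes did not pass with knockdown. Osbp averaged 2150.0 ± 308 normalised reads in PLKO_TNF and 2296 ± 184 in shTon_TNF (log2 fold change 0.10, SE 0.15, 95% interval -0.25 to 0.46, adjusted p = 0.762). In untreated cells it went from 1960.1, 2217 and 1969 to 2186, 2757 and 3179, a mean log2 ratio of 0.38 (SE 0.14) that came with 0.69 in set 3 and 0.15 in set 1. Vapa had -0.15 with TNF-a (SE 0.17, 95% interval -0.54 to 0.23, adjusted p = 0.681) and Vapb 0.08 (SE 0.16, 95% interval -0.30 to 0.45, adjusted p = 0.839). Neither VAP gene kept 1 sign over the 3 sets in either knockdown comparison.

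Pitpnb, the phosphatidylinositol supplier, was the other member lower in all 3 sets with TNF-a. It stood at 2073, 2013 and 1833 in PLKO_TNF and at 1742, 1543 and 1661 in shTon_TNF. These groups did not overlap, as in 6.89% of genes that were lower with knockdown. The log2 fold change was -0.25 (SE 0.15, 95% interval -0.61 to 0.10, adjusted p = 0.434), and in untreated cells it was -0.16 (SE 0.12). RefSeq names a pseudogene, Pitpnb-ps1, and how reads matching both loci were assigned is not known here, so the values of Pitpnb are uncertain.

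Without set 1, knockdown with TNF-a gave log2 fold changes of 0.41 for Pi4ka, 0.21 for Pi4kb, 0.07 for Osbp, -0.07 for Vapa, 0.17 for Vapb and -0.26 for Pitpnb, with adjusted p of 0.352 to 0.930 in limma. Each kept its sign, and the value of Vapa, closest to 0, had been -0.15 with all sets.

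In all, 1 of the 7 genes passed for knockdown with TNF-a in limma, edgeR and DESeq2 alike, and it was Sacm1l in each. For the other 6, adjusted p in the authors' deposited table ran from 0.261 to 0.932. The median log2 fold change of the 7 was 0.08, beside 0.02 over all genes tested. The 95% interval of Sacm1l (upper end -1.02) lay apart from those of the other 6, whose lowest end was -0.61 (Pitpnb). This separation is a description, because Sacm1l was taken to be chosen by its fold change with knockdown and the other 6 were not.

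**Figure D4:**
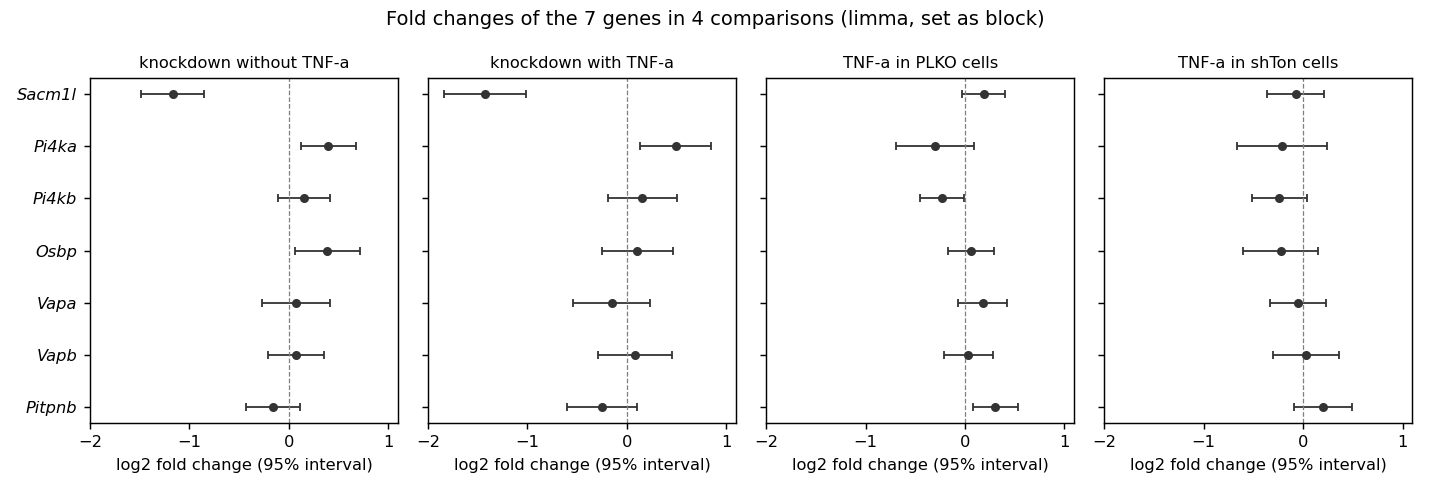
Log2 fold change (x axis) with its 95% interval from limma with the set as a block, for the 7 genes (y axis) in 4 comparisons; each point is 1 gene. Sacm1l lies at -1.17 and -1.43 in the knockdown panels, and in the TNF-a panels the 7 genes lie between -0.30 and 0.30.

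TNF-a changed none of the 7 genes past the threshold. In PLKO cells 9.62% of 12373 genes passed, and 0 of the 7 did so in limma, edgeR or DESeq2. There 2 of the 7, Pitpnb and Pi4kb, had an unadjusted p under 0.05 in limma, beside 3584 of the 12373 genes. In shTon cells 3.28% of 12339 genes passed and 0 of the 7 did so with any of these tools. There 0 of the 7 had an unadjusted p under 0.05 in limma, beside 2321 of the 12339 genes. The 2 comparisons share no library.

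Pitpnb and Pi4kb had the same sign in every set of both TNF-a comparisons. In PLKO cells 25.3% of all genes were higher and 26.6% lower in 3 of 3 sets, and in shTon cells 19.9% and 22.6%. Pitpnb went from 1765, 1682 and 1371 normalised reads in PLKO_CTR to 2073, 2013 and 1833 in PLKO_TNF, without overlap, as in 5.95% of genes that were higher. Its log2 fold change was 0.30 (SE 0.10, 95% interval 0.08 to 0.53, adjusted p = 0.0917), and in shTon cells it was 0.20 (SE 0.12, adjusted p = 0.443). Pi4kb went from 1139, 1261 and 1389 in PLKO_CTR to 1031, 1045 and 1144 in PLKO_TNF, with overlap at 1139 and 1144. Its log2 fold change was -0.23 (SE 0.09, 95% interval -0.45 to -0.01, adjusted p = 0.158), and in shTon cells it was -0.24 (SE 0.12, adjusted p = 0.334).

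Pi4ka differed by set in its value with TNF-a. In PLKO cells its log2 ratios were 0.13, -0.29 and -0.74 in sets 1 to 3, and in shTon cells 0.23, -0.12 and -0.75. The mean was -0.30 in PLKO cells (SE 0.16, adjusted p = 0.272) and -0.21 in shTon cells (SE 0.19, adjusted p = 0.596), with set 1 above 0 in both and set 3 lowest in both. Osbp showed a like spread in shTon cells (0.10, -0.17 and -0.60, mean -0.22, SE 0.16, adjusted p = 0.495), and in PLKO cells it had 0.06 (SE 0.10, adjusted p = 0.714).

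Sacm1l had 0.19 with TNF-a in PLKO cells (SE 0.09, 95% interval -0.03 to 0.41, adjusted p = 0.223), with log2 ratios of 0.18, 0.19 and 0.20 in the 3 sets. These ratios share the PLKO_CTR libraries with the untreated knockdown comparison. In shTon cells it had -0.07 (SE 0.12, 95% interval -0.36 to 0.21, adjusted p = 0.789). Vapa had 0.18 in PLKO cells (SE 0.10, adjusted p = 0.307) and -0.05 in shTon cells (SE 0.12, adjusted p = 0.852), and Vapb had 0.03 in each (adjusted p = 0.862 and 0.921). Without set 1, the values in shTon cells were -0.10 for Sacm1l, -0.43 for Pi4ka, -0.21 for Pi4kb, -0.39 for Osbp, -0.03 for Vapa, 0.18 for Vapb and 0.27 for Pitpnb, with adjusted p of 0.142 to 0.949. None changed sign, and those of Pi4ka, Osbp and Vapb moved most, each away from 0.

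The sets differed in 2 of the 7 genes, where 45.4% of 12310 genes differed among sets in limma. For Sacm1l the means of sets 1 to 3 were 2018 ± 779, 1787 ± 911 and 1242 ± 719 normalised reads (SD over 4 libraries, 1 of each group, adjusted p = 0.00101). It was highest in set 1 and lowest in set 3 in each of the 4 groups. Vapa, the VAP tether gene, averaged 4694 ± 534, 3630 ± 274 and 3259 ± 349 (adjusted p = 0.0106). The muscle marker sums given above were also highest in set 1 and lowest in set 3, and their part in these differences was not tested. Pi4kb had means of 1130.1 ± 121, 1210.1 ± 122 and 1364 ± 187 (adjusted p = 0.0635), and Pitpnb, Osbp, Pi4ka and Vapb had adjusted p of 0.132, 0.364, 0.988 and 0.989.

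Over the 12 libraries Sacm1l varied most among the 7 genes. Its highest library held 4.84 times the reads of its lowest, and 18.5% of the 12310 genes had a larger ratio. For the other 6 the ratio ran from 1.42 (Vapb) to 2.16 (Pi4ka), below the median of 2.38 over all genes. By vector and treatment, the Sacm1l means stood in the order PLKO_TNF, PLKO_CTR, shTon_CTR and shTon_TNF. Neighbours within a vector differed by less than their SD over the 3 sets (2523 ± 468 and 2214 ± 424, 1015 ± 349 and 977 ± 378). That SD includes the differences among sets. Within sets, the log2 ratios with TNF-a were 0.18, 0.19 and 0.20 in PLKO cells and -0.02, -0.02 and -0.18 in shTon cells.

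The wider lists held genes of the same lipid pathway. Of 111 genes in 5 lists 105 were tested, and 0 passed limma or edgeR in either knockdown comparison. Without TNF-a, 24 of the 105 had an unadjusted p under 0.05 in limma, beside 2108 of all 12383 genes. With TNF-a, 21 of the 105 did, beside 2079 of all 12213 genes. The median log2 fold change of the 105 with TNF-a was 0.07 beside 0.02 over all genes. By list the medians were 0.07 for 14 kinases and kinase partners, 0.03 for 27 other phosphoinositide kinases and phosphatases, 0.10 for 32 lipid transfer and contact-site genes, 0.17 for 17 PI4P readers and Golgi Arf genes, and 0.23 for 15 genes of phosphatidylinositol supply and phospholipase C. DESeq2 called 3 of the 105 with TNF-a (360 of 11643 genes in all).

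These 3, which DESeq2 also called in untreated cells, were lower, and they are named here after their values were seen. Ttc7b, a scaffold that holds Pi4ka protein at the plasma membrane, averaged 332 ± 58.8 normalised reads (here on the scale of the deposited table) in PLKO_TNF and 136 ± 51.5 in shTon_TNF (log2 fold change -1.34, SE 0.30, adjusted p = 0.109 in limma and 0.00421 in DESeq2). Clint1, a clathrin adaptor of the Golgi and endosomes, averaged 904 ± 73.1 and 439 ± 118 (-1.07, SE 0.18, adjusted p = 0.0775 and 0.000929). Tmed10, a cargo receptor between the endoplasmic reticulum and the Golgi, averaged 4682 ± 1452 and 2565 ± 222 (-0.82, SE 0.19, adjusted p = 0.111 and 0.0118). Each was lower in 3 of 3 sets with and without TNF-a.

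With TNF-a in PLKO cells, 8 of the 105 passed limma, 3 higher (4.97% of all genes were) and 5 lower (4.65%). Plekha3, which encodes the Golgi PI4P reader FAPP1, rose with TNF-a: it averaged 1063 ± 190.5 normalised reads in PLKO_CTR and 1668 ± 278 in PLKO_TNF on the scale of the deposited table (log2 fold change 0.65, SE 0.10, adjusted p = 0.0157). Ncs1, a calcium sensor that binds Pi4kb protein, rose by 0.61 on the log2 scale (SE 0.10, adjusted p = 0.0197). Of the relatives of Osbp in the lists, only Osbpl9 (-0.52, SE 0.10, adjusted p = 0.0266) and Osbp2 (-0.82, SE 0.16, adjusted p = 0.0294) passed, and both fell. The other 4, named after their values were seen, were the kinase gene Pip4k2b (0.49) and 3 lower genes, the phosphatase gene Fig4 (-0.49), the lipid transporter gene Vps13c (-0.78) and the phospholipase gene Plcd1 (-0.50). In shTon cells 1 of the 105 passed and was lower (1.33% of all genes were): Osbp2 averaged 277 ± 78.0 in shTon_CTR and 152 ± 68.8 in shTon_TNF on the joint scale (-0.93, SE 0.17, adjusted p = 0.0385). The median of the 105 was -0.11 in PLKO cells and -0.07 in shTon cells, beside -0.01 over all genes in each.

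The genes most like Sacm1l over the 12 libraries were ranked by Pearson's r of log2 values less their set means, among 12309 other genes. They were Msantd4 (r = 0.991), Sde2 (0.987), Stx12, an endosomal syntaxin gene (0.987), Zdhhc6, a palmitoyltransferase gene of the endoplasmic reticulum (0.985), and Ubxn4, a gene of endoplasmic reticulum protein degradation (0.985). The 12 points share 2 vectors and 2 treatments, and r is a description of these libraries. Ubxn4 averaged 2031 ± 315, 2018 ± 291, 976 ± 444 and 869 ± 283 normalised reads in PLKO_CTR, PLKO_TNF, shTon_CTR and shTon_TNF. Zdhhc6 averaged 691 ± 66.5, 761 ± 36.4, 343 ± 125 and 333 ± 123 in the same groups. The gene with the lowest r was Pofut2, an O-fucosyltransferase gene (-0.984), at 1730 ± 299, 1608 ± 297, 2696 ± 715 and 2725 ± 777. None of the other 6 members was among the most like: Pitpnb had r = 0.60, Vapa 0.07, Vapb -0.39, Pi4kb -0.57, Osbp -0.61 and Pi4ka -0.65. Without subtracting set means, 4 of the 5 most like genes were the same.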

How the data were processed

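RNA-seq values of 12 libraries (4 groups of 3, grouped by sample title) were read from 3 deposited tables. The submitters' processing notes name Novoalign 2.08.01, DESeq2 and build rn5 without their roles. No source used here names the read counter, annotation release or strand setting. Per the file headers, each table holds the authors' normalised signal per library, a log2 fold change and an adjusted p-value. The deposited signal values were whole multiples of 1 step per library, within 0.001 read, for 100% of values, so whole reads were recovered. Each table was scaled by itself. Levels in the text are recovered reads of the 12899 genes common to the 3 tables, divided by DESeq2 size factors over the 12 libraries (joint scale). Every per-sample column had a sample (0 without).

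Fold changes are from limma 3.58.1 (R 4.3.3) on log2(value + 1), for genes with a mean of at least 10, with a mean-variance trend, the set as a block and Benjamini-Hochberg adjustment over all genes tested at 0.05. The comparisons with a deposited table used its own values, which differ from the joint scale by 1 factor per library. TNF-a in shTon cells, the interaction and the set term were fitted on the joint scale. A pseudocount understates fold changes of low genes. The block was part of the planned design, made with earlier results known. Same-set libraries deviated together (r of 0.609 to 0.889 in 18 pairs, against -0.741 to 0.180 in 36 pairs of different sets). The deposited fold changes also came close to DESeq2 with a fold-change prior and a set term: 357 genes passed for knockdown with TNF-a where the authors' table lists 371, and 38 passed without the set term. Libraries of a group differed beyond sampling noise (chi-square per degree of freedom 73.3 to 167).

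The 7 genes and the lists were chosen with earlier results of these data known. Genes named beyond the 7 are those of the wider lists past the threshold (all where 5 or fewer passed, else the 4 smallest adjusted p), the 5 most and 1 least like Sacm1l, and Nfat5; 4 more genes past the threshold for TNF-a in PLKO cells and those called by DESeq2 alone were added after their values were seen. The limma, edgeR and DESeq2 fits were tested on simulated data. Those data had the same low dispersion for every gene and the same effect in every set, unlike the libraries here. That test therefore does not bear on how firm the calls are. Alternatives were edgeR 4.0.16, DESeq2 1.42.0, TMM scaling, other pseudocounts, no filter, no trend, no block, all 12 libraries and leaving out each set.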

Additional observations from a re-analysis of the deposited data

Results flagged for a closer look

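With TNF-a, Sacm1l was higher in 3 of 3 sets of PLKO cells and lower in 3 of 3 sets of shTon cells, a difference of -0.26 on the log2 scale. In shTon cells its log2 ratios were -0.02, -0.02 and -0.18, so the first 2 sets lay close to 0. Vapa showed the same pattern, with a difference of -0.23 and shTon ratios of -0.10, -0.05 and -0.02. Counting error was not computed for these ratios, and those nearest to 0 may lie within its reach. Of 12310 genes, 109 (0.885%) were higher in all sets of PLKO cells and lower in all sets of shTon cells. The difference was not tested for these 2 genes, because it contains the untreated knockdown comparison through which Sacm1l was taken up.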

How the results depend on the processing

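Of 420 values of the 7 genes under alternatives, 401 kept their direction and side of the threshold (or, where not tested, moved by less than the SD between sets), and 14 changed sign. Sacm1l for knockdown with TNF-a was no longer past the threshold without the replicate block (-1.43, adjusted p = 0.757), without the mean-variance trend (-1.43, 0.172) or with a pseudocount of 0.1 (-1.43, 0.0586); leaving out each set gave -1.60 to -1.26. Its difference between treatments ran from -0.39 (without the library labelled shTon_TNF of set 1) to -0.20 (without set 3).

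The largest value that changed sign was that of Pi4ka for TNF-a in shTon cells (-0.21 with all sets). Leaving out 1 set or library gave, for Pi4ka, -0.43 to 0.054 for TNF-a in shTon cells and -0.11 to 0.13 for the interaction, and for Vapa -0.070 to 0.22 for untreated knockdown. For Vapb it gave -0.041 to 0.12 for TNF-a in PLKO cells, -0.077 to 0.18 for TNF-a in shTon cells, -0.048 to 0.17 for knockdown with TNF-a, -0.026 to 0.13 for untreated knockdown and -0.037 to 0.14 for the interaction. For the interaction, Pi4kb had -0.072 to 0.070 and 0.013 in edgeR, and Vapb had -0.0033 with TMM. The lower end without 1 set came without set 3 for Vapa and for each Vapb value, and the positive Pi4ka value in shTon cells also came without set 3.

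Counts of genes past the threshold moved more than the members did. For knockdown with TNF-a (31) they were 444 with all 12 libraries, 360 in DESeq2, 12 with a pseudocount of 0.1, 0 without the trend, 0 without the block and 32 to 488 without 1 set. For untreated knockdown (14) they were 3, 403, 2, 0, 0 and 12 to 283 in the same order, and 23 with a pseudocount of 5. For TNF-a in PLKO cells (1190) they were 696 with all 12 libraries, 55 without the trend, 0 without the block and 545 to 1410 without 1 set. For TNF-a in shTon cells (405) they were 623 in DESeq2, 143 without the trend, 6 without the block and 317 to 1105 without 1 set. Of the fits without 1 set, those whose counts moved by over 1.5 times were those for knockdown with TNF-a without set 1 (488) or set 2 (157), for untreated knockdown without set 1 (283) or set 3 (220), for TNF-a in PLKO cells without set 2 (545) and for TNF-a in shTon cells without set 1 (1105). The cause was not tested.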
